A study of Danio rerio with 18 samples.

Results

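The genes of the p53 pathway and of apoptosis were examined through mdm2, ccng1, baxa, casp8 and casp3a, taken as every probe set annotated with exactly 1 of these symbols. Of the 5 genes, 4 had such a probe set, 1 each, among 8793 gene symbols in all, and casp3a is not analysed here. Zebrafish embryos of 14 to 16 somites, raised at 28 °C, were dissociated and their cells sorted by green fluorescence (GFP) from 3 lines, with 3 Affymetrix arrays in each of 6 groups. GFP marks muscle in the first line, which is wild type and carries a miR-206 reporter. It marks the central nervous system (CNS) in both others, a wild-type and a Dicer-mutant line that carry a miR-124 reporter. Each line also gave a GFP-negative fraction, which holds the cells not sorted as positive. The labels write MZ for the mutant line and do not spell it out, and they give neither its dicer1 allele nor the promoter of a reporter. All 6 groups therefore consist of dissociated and sorted cells, and no unsorted or undissociated embryo serves as a control.

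The transcription factor p53 responds to damaged DNA and other stresses by switching on genes that stop the cell cycle, repair DNA or start apoptosis. Its level is held down by Mdm2, a ubiquitin ligase that marks p53 for destruction and whose own gene is switched on by p53, so that the pair forms a feedback loop. Apoptosis starts either at mitochondria, where Bax opens the outer membrane and releases cytochrome c, or at death receptors, which activate caspase-8, and both routes lead to executioner caspases such as caspase-3. Dicer, which cuts microRNA precursors, is needed for most mature microRNAs.

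Values are linear intensities made by the authors with MAS5, and differences are on the scale of log2(intensity + 16), which understates changes of dim genes. They come from 1 limma fit to all 18 arrays and 9548 features, with p-values adjusted by Benjamini-Hochberg over all features; a gene passed the test in a comparison when its adjusted p was under 0.05. All p-values take the arrays of a group for separate biological replicates, as the labels describe them. Array medians lay between 30.9 and 44.7, and 9374 to 10753 was the summed intensity of 13 CNS markers in mutant CNS cells against 9579 to 10373 in wild-type CNS cells. The summed intensity of 11 muscle markers was 13572 to 18527 in muscle cells and 480 to 798 in the cells left after removing them. The CNS markers were less depleted, at 2416 to 2971 in wild-type and 3063 to 4646 in mutant GFP-negative cells of the miR-124 lines, so each comparison of CNS cells with the rest is with cells that keep CNS signal. In CNS cells the dicer1 probe set had a mean of 140 ± 60.2 in the mutant, against 245 ± 18.3 without the mutation (SD, n = 3; log2 difference -0.81, limma adjusted p = 0.0220). In GFP-negative cells it averaged 93.5 ± 22.8 in the mutant and 198 ± 87.9 in the wild type (-0.90, limma adjusted p = 0.0117).

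Of the 4 measured genes, mdm2 and baxa differed between cell fractions, and none of the 3 that could be tested passed the test between mutant and wild type. Muscle cells had more mdm2 signal than the other cells of their embryos and more baxa signal than CNS cells. Those other cells had the lowest mdm2 mean of all groups (59.3), while the means of muscle (97.7) and wild-type CNS cells (94.8) were similar. ccng1 was bright in every group and passed in no comparison, and casp8 stayed in the dim part of every array.

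**Figure D1:**
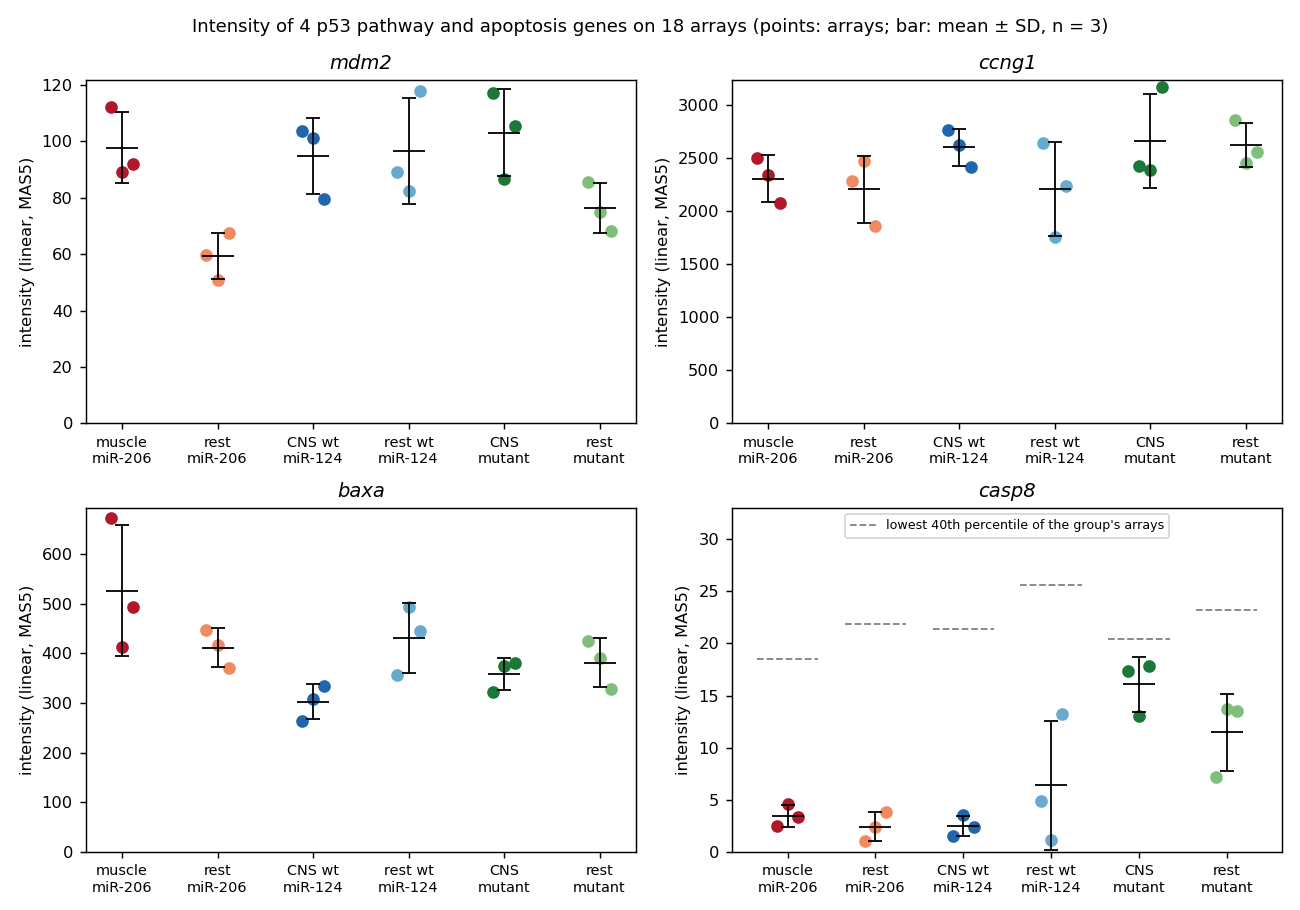
Linear intensity of mdm2, ccng1, baxa and casp8 in the 6 sorted groups, with 1 point per array and the mean ± SD of 3 arrays. All 3 points of mdm2 in the GFP-negative cells of the miR-206 line (50.8 to 67.4) lie below every other point of that gene, while all casp8 points lie below the dashed line of their group, which marks the lowest 40th percentile of its arrays.

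mdm2 encodes the ubiquitin ligase that limits p53. Its intensity was 112.2, 89.1 and 91.9 on the 3 muscle arrays. On the arrays of the cells left in the miR-206 line it was 59.8, 50.8 and 67.4. The groups did not overlap, and the second held the lowest values of the gene anywhere. mdm2 was thus higher in muscle by 0.59 on the log2 scale (SE 0.16, 95% interval 0.27 to 0.92, limma adjusted p = 0.00523). Among the members tested it was the 1 of 3 that passed, where 36.2% of all features did (13.1% higher and 23.1% lower); the groups of 42.4% of features did not overlap. The difference passed in each of 17 alternatives of the processing, at 0.39 to 0.79 and adjusted p-values up to 0.0325. In bulk samples, fewer cells with a transcript and less of it per cell cannot be told apart.

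The wild-type miR-124 line gave other mdm2 values. They were 103.8, 101.1 and 79.5 in CNS cells. The GFP-negative cells of that line had 89.3, 82.3 and 117.9. These groups overlapped widely and differed by -0.02 (95% interval -0.34 to 0.31, limma adjusted p = 0.952). In the mutant line mdm2 was 117.2, 86.6 and 105.3 in CNS cells. The mutant GFP-negative cells had 85.7, 74.8 and 68.2. Here the groups did not overlap, by a margin of less than 1 intensity unit, and the difference of 0.36 (95% interval 0.04 to 0.69) did not pass (limma adjusted p = 0.141). It passed with array weights (0.39, adjusted p = 0.0277). Across the 38.7% of features whose mutant fractions did not overlap, mdm2 was the only member. The interaction, which asks whether the CNS difference itself differed between genotypes, was 0.38 (95% interval -0.08 to 0.84, limma adjusted p = 0.496).

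The GFP-negative fractions of the wild-type lines differ in what was taken out of them, muscle in one and CNS cells in the other. mdm2 averaged 59.3 ± 8.31 in the first and 96.5 ± 18.9 in the second, without overlap. The line and the cells removed cannot be told apart in this comparison. The difference was -0.57 (95% interval -0.90 to -0.24, limma adjusted p = 0.0330), so that 1 of 3 members passed where 6.13% of features did (2.23% higher and 3.9% lower), and 17.7% did not overlap. This call was lost with arrays centred on their medians (-0.50, adjusted p = 0.0668), with quantile normalization (-0.53, 0.0506), with these groups fitted alone (0.258) and with array weights (-0.53, 0.102). Without replicate 1 or 2 of the miR-206 GFP-negative cells the adjusted p became 0.0749 and 0.1003, and without replicate 1 or 3 of the miR-124 GFP-negative cells 0.0521 and 0.135. Between muscle and CNS cells mdm2 differed by 0.04 (95% interval -0.29 to 0.37, limma adjusted p = 0.864).

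By group mean, mdm2 ran from mutant CNS cells (103 ± 15.4) through muscle (97.7 ± 12.6), GFP-negative cells of the wild-type miR-124 line (96.5 ± 18.9), wild-type CNS cells (94.8 ± 13.3) and mutant GFP-negative cells (76.2 ± 8.84) to GFP-negative cells of the miR-206 line (59.3 ± 8.31; SD, n = 3). Neighbours in this order overlapped in their arrays, except the last pair. The highest mean was 1.74 times the lowest. Beside mdm2, 13 of 13 CNS markers, 11 of 12 tested epidermal markers and 8 of 8 erythroid markers were lower in muscle than in the rest of the miR-206 line. A set of 15 immediate early and heat shock genes, which respond to dissociation, summed to 19724 to 21818 in muscle and to 24889 to 27322 in the rest, with 1 higher and 8 lower. The ratio of the 3′ to the 5′ GAPDH control probe sets, a common sign of RNA quality, was 0.356 to 0.428 on the muscle arrays and 2.48 to 4.07 on the others of that line. The part of these in the mdm2 difference was not tested.

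ccng1 encodes cyclin G1, which in mammals is a p53 target that brings a phosphatase to Mdm2. It was among the brightest features of the array. Muscle cells had 2502, 2340 and 2071, and the other cells of that line 2286, 2466 and 1854. In the wild-type miR-124 line CNS cells had 2761, 2623 and 2415. Their GFP-negative counterparts had 2635, 1752 and 2239. Wild-type fractions of either line overlapped in both cases. Mutant CNS cells had 2421, 2381 and 3164, and mutant GFP-negative cells 2852, 2450 and 2555. Replicate 3 of the mutant CNS cells stood above every other array, and the 2 others of that group lay below the mean of the mutant GFP-negative cells.

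The group means of ccng1 lay between 2202 ± 315 in GFP-negative cells of the miR-206 line and 2655 ± 441 in mutant CNS cells, a ratio of 1.21, and every neighbour in the order overlapped the next. ccng1 passed in none of the 8 comparisons by limma, and its unadjusted p was under 0.05 in none of them. The mutant and wild-type CNS cells differed by 0.02 (95% interval -0.29 to 0.33, adjusted p = 0.933). Mutant and wild-type GFP-negative cells differed by 0.26 (95% interval -0.05 to 0.57, adjusted p = 0.179).

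Quantile normalization, which gives every array the same distribution, moved both values of ccng1 past the threshold, to 0.37 in CNS cells (adjusted p = 0.0455) and 0.46 in GFP-negative cells (0.0131). The top of the distribution differed between the lines before that step. The 99th percentile of intensity was 2299 to 2515 on the 6 mutant arrays and 2641 to 3139 on the 6 wild-type arrays of the miR-124 line. By rank, 0.563% to 0.999% of probe sets were brighter than ccng1 on mutant arrays and 1.13% to 2.04% on those wild-type arrays. ccng1 thus ranked higher on mutant arrays, while its intensities overlapped between the genotypes in both fractions.

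baxa encodes a zebrafish Bax, the protein that opens the mitochondrial outer membrane. Its values in muscle were 672.4, 413.5 and 493.6. In wild-type CNS cells they were 264.3, 308.2 and 333.9. All muscle arrays lay above all CNS arrays. The difference was 0.75 (SE 0.17, 95% interval 0.40 to 1.1, limma adjusted p = 0.00109), the 1 call among 3 members where 44.4% of features passed (18.3% higher and 26.1% lower) and 56.7% did not overlap. It passed in each of 17 alternatives, with adjusted p-values up to 0.0113. Muscle cells of one line are compared here with CNS cells of another, so line and cell type cannot be told apart in that value. The GAPDH 3′ to 5′ ratio was 0.356 to 0.428 in muscle and 4.54 to 5.77 in wild-type CNS cells, and 11 of 15 dissociation response genes were lower in muscle. Their part in the baxa difference was not tested.

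The GFP-negative cells of the miR-206 line had 447.2, 417.4 and 370.3 for baxa. Those of the wild-type miR-124 line had 355.7, 493.8 and 444.4. Wild-type CNS cells lay below all arrays of the second group, and their difference from it was -0.49 (95% interval -0.84 to -0.14, limma adjusted p = 0.0309). That was the 1 call among 3 members, against 32.8% of all features (14.5% higher and 18.3% lower), with 43.1% not overlapping. It was lost with median centring (-0.34, adjusted p = 0.157) and with array weights (-0.39, 0.0729). It was also lost without CNS replicate 1 (-0.40, 0.136) or 2 (-0.50, 0.0613) and without GFP-negative replicate 2 (-0.38, 0.123) or 3 (-0.46, 0.0772).

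Against its own GFP-negative cells, muscle had overlapping baxa values and a difference of 0.32 (95% interval -0.03 to 0.67, limma adjusted p = 0.149). That difference passed with median centring (0.51, adjusted p = 0.0314) and without muscle replicate 2, the lowest of the 3 (0.47, 0.0449). Median centring moves the median over all features in this comparison from -0.06 to 0.14, about as far as it moves baxa. The mutant fractions overlapped, with 321.3, 374.1 and 379.7 in CNS and 424.5, 390.2 and 327.5 in GFP-negative cells (-0.08, 95% interval -0.43 to 0.27, limma adjusted p = 0.833). The interaction was 0.41 (95% interval -0.09 to 0.90, adjusted p = 0.496), so the baxa difference seen in the wild-type line and not in the mutant line was not shown to differ between them.

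In the order of means, baxa ran from muscle (526.5 ± 133) through GFP-negative cells of the wild-type miR-124 line (431 ± 70.0), of the miR-206 line (412 ± 38.8) and of the mutant (381 ± 49.2) to mutant CNS cells (358 ± 32.2) and wild-type CNS cells (302 ± 35.2). Each neighbour overlapped the next, and the highest mean was 1.74 times the lowest. The mutant differed from the wild type by 0.24 in CNS cells (95% interval -0.11 to 0.59, adjusted p = 0.286) and by -0.17 in GFP-negative cells (95% interval -0.52 to 0.18, adjusted p = 0.456).

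casp8 encodes the initiator caspase of the death receptors. Its probe set read 2.5, 4.6 and 3.3 in muscle, 1, 2.4 and 3.8 in the other cells of that line and 1.5, 3.5 and 2.4 in wild-type CNS cells. Wild-type GFP-negative cells of the miR-124 line had 4.9, 1.1 and 13.2. Mutant CNS cells had 17.4, 13 and 17.8, and mutant GFP-negative cells 7.2, 13.7 and 13.5. On 0 of 18 arrays did it exceed the 40th percentile of that array, which lay between 18.5 and 26.6, so it was not tested with the other features. Mutant CNS arrays were all above wild-type CNS arrays, and the mutant GFP-negative arrays overlapped the wild-type ones.

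In a fit without that filter casp8 was higher in mutant than in wild-type CNS cells by 0.79 (SE 0.15, limma adjusted p = 0.000812), where 24.0% of 13500 features passed and 46.4% did not overlap. In GFP-negative cells the difference was 0.32 (adjusted p = 0.129) and the interaction 0.47 (adjusted p = 0.390), neither past the threshold. A probe set in the lower part of every array may measure little of its own transcript, and no detection calls are used here. The caspases that passed the filter and were tested were casp2, casp9 and the zebrafish gene caspb. casp2, an initiator caspase, fell in mutant CNS cells by 0.67 (limma adjusted p = 0.00285), from 20.5, 31.6 and 34.3 to 8.9, 17.6 and 9.7, also close to the dim end of the arrays.

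Set side by side, the members tested gave 1 call in each of 4 comparisons and 0 of 3 in the others. For mutant against wild type 0 of 3 passed in CNS cells, where 34.7% of all features did (19.3% higher and 15.4% lower), and 0 of 3 in GFP-negative cells, where 34.9% did (17.5% higher and 17.4% lower). The groups of 0 of 3 members did not overlap in either, against 56.1% and 46.1% of features. With limma's unadjusted p under 0.05 the count was 0 in both. Mutant CNS against mutant GFP-negative cells gave 0 of 3, against 15.5% of features (6.49% higher and 9.03% lower), and 1 by unadjusted p. The interaction gave 0 of 3, against 2.58% (2.27% higher and 0.304% lower), and 0 by unadjusted p. The shares of features that passed are by adjusted p, and none was computed for unadjusted p. With 3 genes tested, none of these counts sets the members apart from the background.

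**Figure D2:**
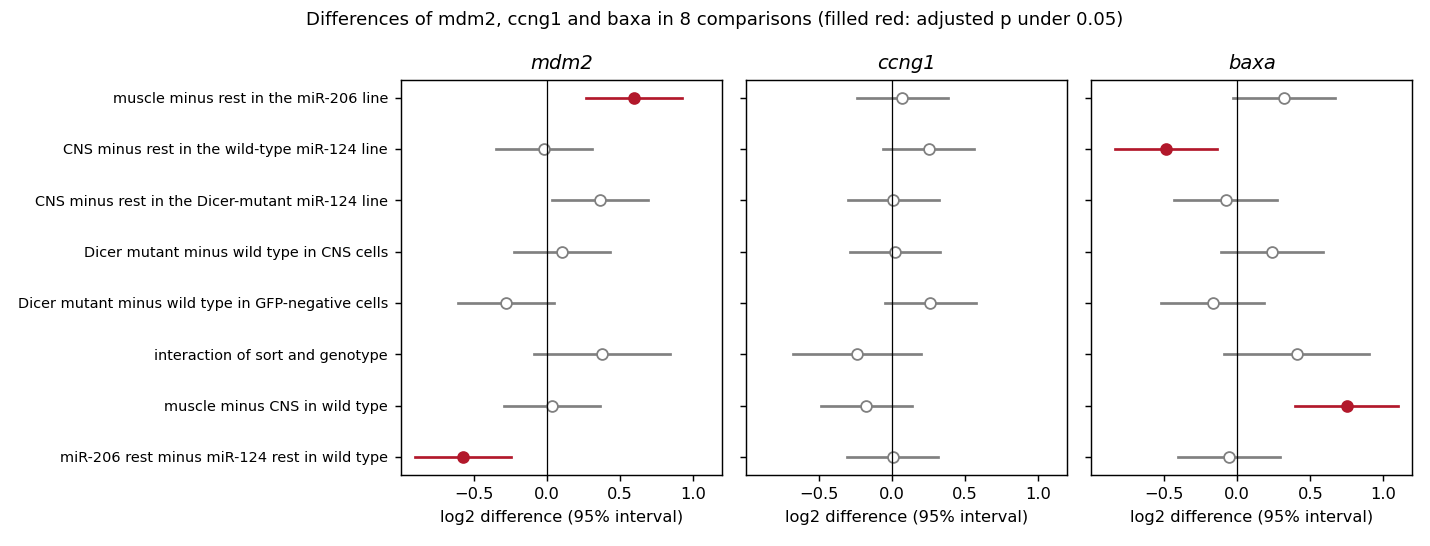
Log2 differences of mdm2, ccng1 and baxa with 95% intervals in the 8 comparisons, filled red where the adjusted p was under 0.05. The 4 filled points are mdm2 in muscle against rest (0.59) and between GFP-negative fractions (-0.57), and baxa in CNS cells against rest (-0.49) and in muscle against CNS cells (0.75).

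Over the 18 arrays the members did not follow each other closely. Pearson's r between pairs of members ran from -0.35 for ccng1 and baxa to 0.36 for ccng1 and casp8, and was 0.26 for mdm2 and ccng1 and -0.003 for mdm2 and baxa. These values describe arrays that share groups and lines. The named features most like mdm2 were rtraf (r = 0.743), spg7 (0.696) and dbr1 (0.692). For ccng1 they were phf8 (0.805), ddb1 (0.794) and ythdf2 (0.771), and for baxa shisa2a (0.833), rcan3 (0.818) and septin2 (0.815). Those most like casp8, itself dim on every array, were ciao2b (0.912), rnf11a (0.911) and inpp4aa (0.906). By mean intensity all of these were brighter in both mutant groups than in any wild-type group, as casp8 was. Choice by correlation with casp8 favours that order, so it is no support for a change of casp8. Each was picked as the highest over all named features, and no p is given.

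The wider pathway was followed through 7 lists with 252 symbols, of which 122 besides the members had a probe set and 101 passed the filter on dim features. Genes that passed through the group in which they were bright are favoured by that filter. In mutant against wild-type CNS cells 23 of the 101 were higher and 14 lower (36.6%, against 34.7% of all features). In GFP-negative cells 19 were higher and 20 lower (38.6% against 34.9%). The median of the 101 was 0.08 and -0.09 in these comparisons, beside 0.02 and 0.00 over all features. With median centring the first split became 17 higher and 20 lower, and the second 18 and 21.

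**Figure D3:**
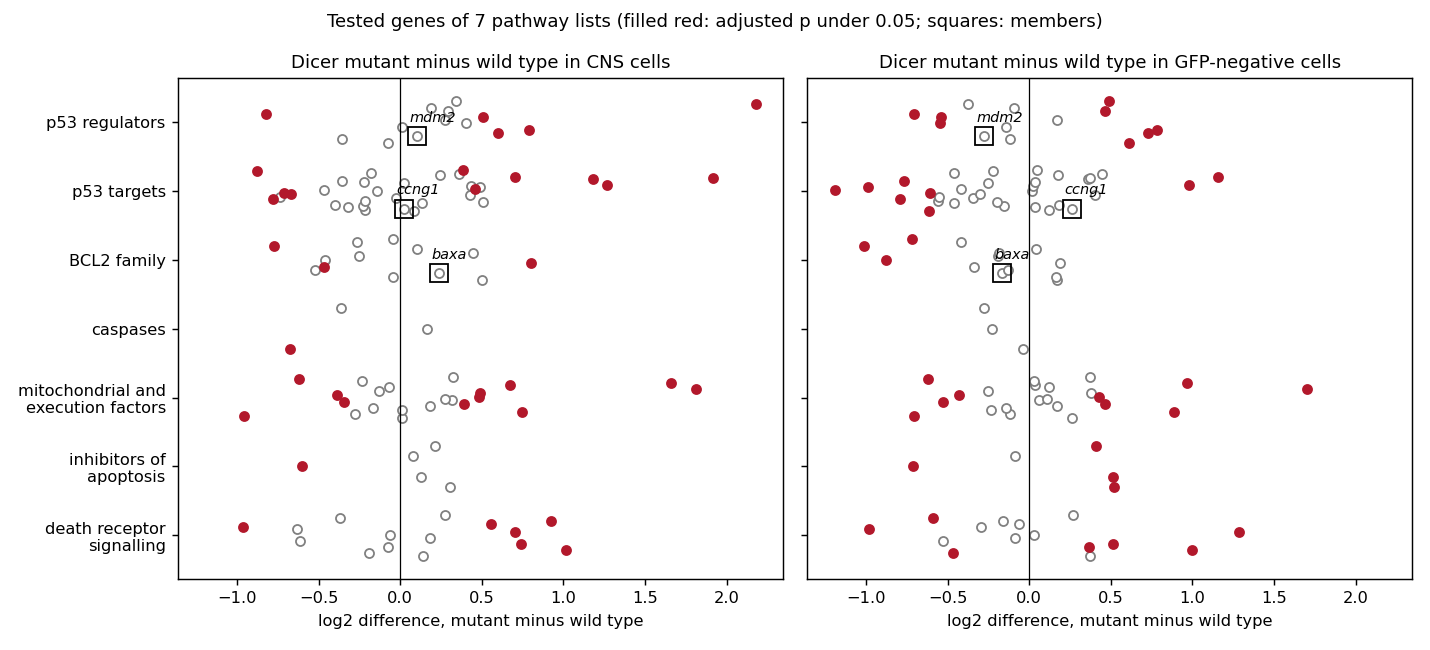
Log2 difference between mutant and wild type for every tested gene of the 7 lists, in CNS cells and in GFP-negative cells, filled red where the adjusted p was under 0.05 and boxed for the members. Filled points stand on both sides of 0 in most lists, and none of the 3 boxed members is filled.

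Among the regulators of p53, several changed in the mutant in both fractions. ppm1da, a copy of the gene for Wip1, the phosphatase that turns off p53 signalling in mammals, read 433, 433.1 and 529.4 in wild-type and 754, 849.1 and 839 in mutant CNS cells. In GFP-negative cells it went from 301.4, 346.3 and 316 to 526.9, 609.9 and 559.2. No array overlapped, and the difference was 0.79 in each (SE 0.14, limma adjusted p = 0.000182 and 0.000261). A second probe set for ppm1da differed by -0.01 (adjusted p = 0.979) and 0.14 (0.441), so the change is that of 1 of its 2 probe sets.

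mdm4, which encodes the partner of Mdm2 that masks p53's activation domain, rose from 297.9, 388.1 and 360.9 to 513, 579.6 and 512.4 in CNS cells (0.60, SE 0.14, limma adjusted p = 0.00297). In GFP-negative cells it rose from 262.4, 336.6 and 317.6 to 531.6, 577.3 and 440.8 (0.73, adjusted p = 0.000746). rchy1, the gene for the p53 ubiquitin ligase Pirh2, fell from 182.6, 179.1 and 164.1 to 98.3, 85 and 93 in CNS cells (-0.82, SE 0.13, adjusted p = 0.000101). In GFP-negative cells it fell from 174.6, 204 and 161.8 to 110.2, 89.6 and 112.2 (-0.71, adjusted p = 0.000519). Neither gene overlapped between genotypes in either fraction, and all 4 calls held in 17 of 17 alternatives. For mdm4 and rchy1 the interaction was -0.13 and -0.12, neither past the threshold.

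In all, 4 of 13 tested regulators other than mdm2 were higher and 1 lower in mutant CNS cells, and 5 higher and 3 lower in mutant GFP-negative cells (38.5% and 61.5%, against 34.7% and 34.9% of all features). chek1, a checkpoint kinase, was higher in mutant GFP-negative cells by 0.61 (limma adjusted p = 0.00478) and differed by -0.07 in CNS cells (adjusted p = 0.747). For tp53bp1, which encodes a damage-site scaffold, the probe sets disagreed in GFP-negative cells, at 0.47 and -0.51, both past the threshold. In CNS cells they gave 0.29 (limma adjusted p = 0.0950) and -0.70 (0.00279), so the direction of tp53bp1 is uncertain in both fractions. usp7, the gene for a protease that takes ubiquitin off Mdm2 and p53, was higher in GFP-negative cells by 0.49 (adjusted p = 0.0107). That call was lost without mutant GFP-negative replicate 2 (0.40, adjusted p = 0.0620), and a second usp7 probe set gave 0.25 (adjusted p = 0.198).

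tp63, a p53 relative needed for the skin, had the largest change of the list in CNS cells. It read 30.6, 66.7 and 47.6 in the wild type and 381.1, 221.8 and 225.6 in the mutant (2.18, SE 0.30, limma adjusted p = 1.90e-05), and differed by -0.38 in GFP-negative cells. A second, dimmer probe set gave 0.55 in CNS cells (adjusted p = 0.0726). tp63 is also 1 of the 13 epidermal markers, whose summed intensity was 961 to 1714 in wild-type and 4002 to 6600 in mutant CNS cells, with 9 of 12 tested markers higher. In GFP-negative cells the sum was 7084 to 9524 in the wild type and 5994 to 8204 in the mutant. The GAPDH 3′ to 5′ ratio was 7.55 to 11.1 on the 6 mutant arrays and 1.41 to 5.77 on the 6 wild-type arrays of the miR-124 line. The dissociation response genes summed to 19663 to 22065 in mutant and 26210 to 28995 in wild-type CNS cells, with 1 of 15 higher and 7 lower. In GFP-negative cells they summed to 20243 to 21765 in the mutant and 24032 to 25561 in the wild type, with 1 higher and 3 lower. There 5 of 6 tested myeloid and 3 of 8 tested erythroid markers were also lower in the mutant. The CNS markers summed to 3063 to 4646 in mutant and 2416 to 2971 in wild-type GFP-negative cells, with 1 of 13 past the threshold as higher. The part of any of these in the differences between mutant and wild type was not tested.

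**Figure D4:**
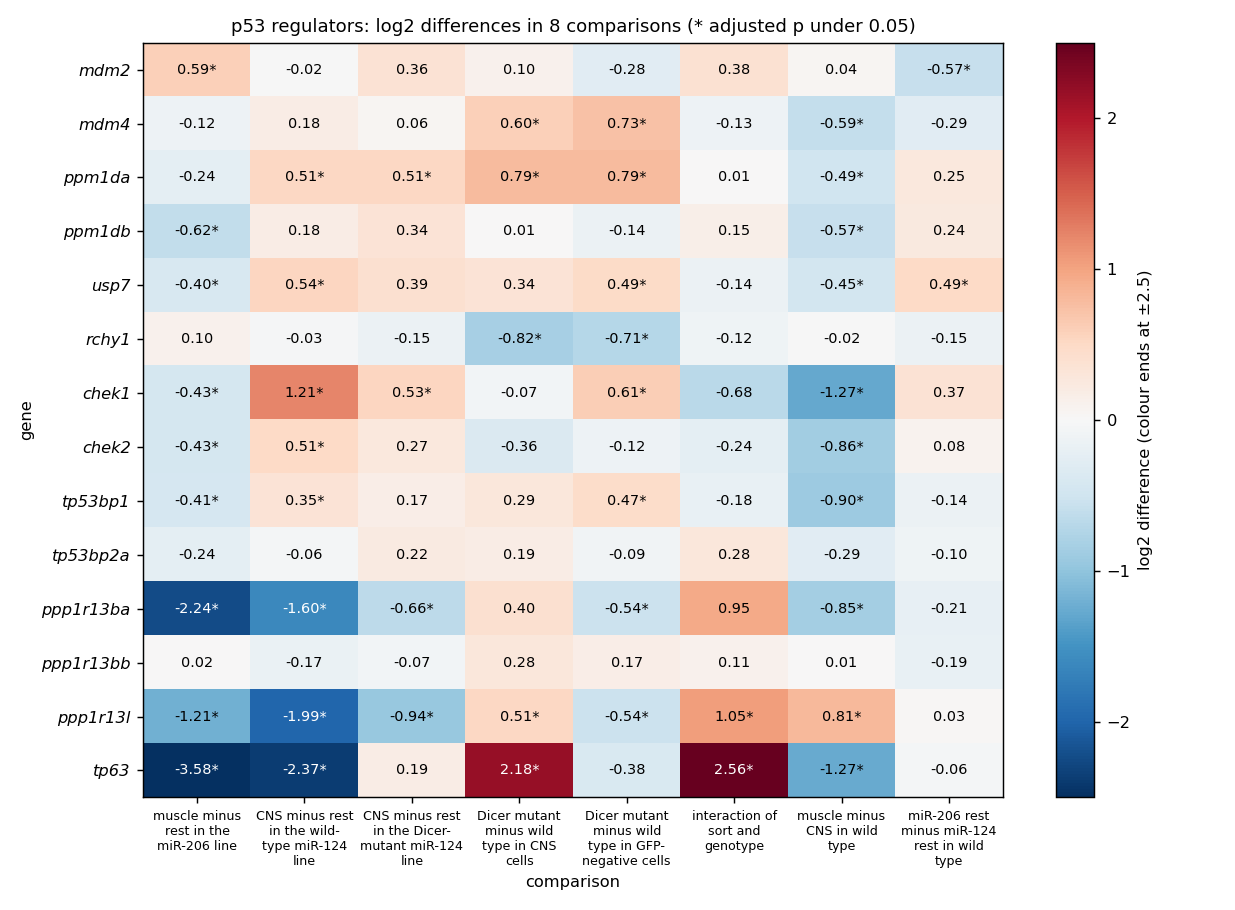
Log2 differences of mdm2 and the 13 other tested p53 regulators in the 8 comparisons, with colour and number giving the value and an asterisk an adjusted p under 0.05. The columns for mutant against wild type show ppm1da and mdm4 higher (0.60 to 0.79) and rchy1 lower (-0.82 and -0.71) in both fractions, where mdm2 has no asterisk. A second ppm1da probe set, not drawn, gave -0.01 in CNS cells and 0.14 in GFP-negative cells, neither past the threshold. A second tp53bp1 probe set, also not drawn, gave -0.70 and -0.51 in the same columns, both past the threshold.

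Between cell fractions, chek1 was higher in wild-type CNS cells than in the rest by 1.21 (limma adjusted p = 2.94e-06) and lower in muscle than in CNS cells by 1.27 on the log2 scale, at -1.27 (adjusted p = 8.58e-07). chek2, usp7 and ppm1da were higher in wild-type CNS cells by 0.51, 0.54 and 0.51, all past the threshold, though chek2 was not without CNS replicate 1 (0.44, adjusted p = 0.0764), and the second usp7 probe set gave 0.18 (adjusted p = 0.385). ppp1r13ba and ppp1r13l, which encode the p53-binding proteins ASPP1 and iASPP, were lower in CNS cells than in the rest, by -1.60 and -1.99 in the wild type, and lower in muscle than in the rest, by -2.24 and -1.21. In muscle ppp1r13ba was dim, at a mean of 14.6. mdm2 was the 1 tested gene of the list of 14 that passed as higher in muscle than in its rest. Of the other 13, 0 passed as higher and 8 as lower (61.5%), where 13.1% of all features were higher and 23.1% lower. With median centring 0 were higher and 3 lower, and with quantile normalization 0 and 6.

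The genes listed as reported targets of p53, other than BCL2 genes and caspases, moved both ways. The list takes in several members of a family, such as gadd45 and phlda genes, so a gene on it may be only a relative of a target. In mutant CNS cells 6 of 31 tested besides ccng1 were higher and 4 lower (32.3% against 34.7% of features), or 4 higher and 7 lower with median centring. polh, the gene for a DNA polymerase that copies past damage, rose from 22.5, 30.4 and 35.5 to 94.9, 81.9 and 102.3 (1.27, limma adjusted p = 1.1e-05). It also rose in GFP-negative cells, from 31.9, 33.8 and 26.7 to 65.7, 87.3 and 76.3 (0.98, adjusted p = 0.000200). sesn3, a sestrin of the stress response, rose in CNS cells by 1.18 from 247 ± 31.5 to 581 ± 57.9 (adjusted p = 8.59e-05).

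Other genes of this list fell. gadd45ba, a growth arrest and DNA damage gene, fell by 0.78 in CNS cells (326 ± 77.6 to 180 ± 12.4, limma adjusted p = 0.000733) and by 0.79 in GFP-negative cells (adjusted p = 0.000746). A second probe set for gadd45ba gave -0.51 and -0.54, neither past the threshold. pcna, the replication clamp, fell by 0.71 in CNS cells (5324 ± 526 to 3233 ± 27.5, adjusted p = 0.000274) and by 0.61 in GFP-negative cells (adjusted p = 0.00126). Quantile normalization took the first pcna value to -0.18 (adjusted p = 0.0696). In GFP-negative cells 2 of 31 were higher and 6 lower (25.8% against 34.9% of features). There tigarb, a phosphatase of sugar metabolism, was at 1.16 and phlda2 at -1.19, both past the threshold.

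By cell fraction, plk3 and foxo3b were higher in muscle than in the rest by 1.54 and 1.14, and phlda3 and thbs1b lower by -1.49 and -1.56, all past the threshold. In muscle thbs1b was dim, at a mean of 4.6, so the pseudocount affects the size of its value. In wild-type CNS cells against the rest, 3 of 31 were higher and 10 lower (41.9% against 32.8% of features). With median centring 10 were higher and 8 lower. Among the 3 higher were trim8b at 0.80 and tp53inp1 at 0.70. plk2b, a polo-like kinase gene, read 13.2, 16.3 and 17 in wild-type CNS cells and 246.4, 129.2 and 189.4 in the rest (-2.66, limma adjusted p = 7.25e-08). Between muscle and CNS cells, 8 of 31 were higher in muscle and 8 lower (51.6% against 44.4% of features). gadd45bb and gadd45ba were higher, by 2.94 and 1.22, and tp53inp1, trim8b and phlda3 lower, by -1.31, -1.24 and -1.05.

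Of the BCL2 family, which decides whether mitochondria release cytochrome c, 12 genes besides baxa were tested. In mutant CNS cells 1 was higher and 2 lower, and in mutant GFP-negative cells 0 higher and 3 lower, or 25% in each, below the 34.7% and 34.9% of all features. mcl1a, which encodes a protector of mitochondria, fell from 534.4, 445.9 and 537.2 to 283.9, 272 and 309.8 in CNS cells (-0.77, limma adjusted p = 0.000970). In GFP-negative cells it fell from 537.3, 879.3 and 751.8 to 364.1, 308.2 and 358 (-1.01, adjusted p = 0.000111). bcl2l10, a BCL2 relative, was higher in mutant CNS cells by 0.80 (141 ± 18.2 to 256 ± 9.83, adjusted p = 0.000147). bcl2l13 differed by -0.88 in GFP-negative cells (adjusted p = 0.00515), but its second probe set gave 0.47 there (0.0542), and 0.76 in CNS cells (0.00313) against -0.46 for the first.

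pmaip1, the gene for the p53-induced BCL2 family protein Noxa, was low in both sorted cell types. It read 11.3, 12.3 and 14.1 in wild-type CNS cells and 106.9, 156.2 and 93.4 in the rest (-2.21, limma adjusted p = 5.96e-09). Mutant CNS cells had 15.4, 9 and 10.9 against 61.4, 76.7 and 56.1 in mutant GFP-negative cells (-1.54, adjusted p = 1.46e-06). Muscle had 24, 35.3 and 41.9 against 93, 95 and 80.3 (-1.1, adjusted p = 3.81e-05). No fraction overlapped its counterpart in any line. The mutant GFP-negative cells were below the wild-type ones (-0.72, adjusted p = 0.00370). Muscle exceeded wild-type CNS cells, where pmaip1 was dim, by 0.78.

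Over the family, 1 was higher and 5 lower in muscle than in the rest (50% against 36.2% of all features). In wild-type CNS cells 0 were higher and 4 lower than in the rest (33.3% against 32.8%). The family medians were -0.37 and -0.33, beside -0.06 and 0.02 over all features. With median centring the counts became 2 and 4, and 0 and 2. With quantile normalization they were 1 and 4, and 0 and 4. badb, which encodes a killer protein of the family, was lower in muscle by 0.76 on the log2 scale, at -0.76 (limma adjusted p = 0.000139), and its second probe set gave -0.69.

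A list of 22 tested genes held mitochondrial and execution factors together with genes of other roles, among them several pdcd and bag genes. Its counts are therefore not those of execution factors alone. In mutant CNS cells 7 of the 22 were higher and 4 lower (50% against 34.7% of features). With median centring the counts were 4 and 4, and with quantile normalization 4 and 3. In mutant GFP-negative cells 5 were higher and 4 lower (40.9% against 34.9%). pdcd4b, a brake on translation, rose by 1.81 in CNS cells (119 ± 11.6 to 464 ± 97.0, limma adjusted p = 1.04e-05) and by 1.70 in GFP-negative cells. pdcd6ip, known as ALIX and needed for membrane scission, rose by 1.66 (328 ± 41.2 to 1068 ± 22.4, adjusted p = 1.18e-06) and by 0.97, and its second probe set rose by 1.37 and 1.24. aifm2, a flavoprotein gene, rose by 0.75 and 0.89, and vdac2, a channel of the outer mitochondrial membrane that holds Bak, fell by 0.62 in each fraction, all past the threshold. apaf1, the scaffold on which caspase-9 is activated, was lower in wild-type CNS cells than in the rest (-0.45, adjusted p = 0.0383), a call lost in 10 of 17 alternatives. A second apaf1 probe set gave -0.07 there (limma adjusted p = 0.860).

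Of the 5 tested inhibitors of apoptosis, 3 were higher in mutant GFP-negative cells, birc2 by 0.52, birc5a by 0.51 and xiap by 0.41, where 17.5% of all features were higher. birc2 and xiap encode ubiquitin ligases that restrain caspases, and birc5a a survivin. The xiap call was lost in 9 of 16 alternatives. dad1, a subunit of the enzyme that attaches sugars to proteins and named for its loss causing cell death, fell by 0.71 there (limma adjusted p = 9.32e-05). In mutant CNS cells dad1 fell by 0.60 (1340 ± 79.5 to 879 ± 61.2, adjusted p = 0.000345), and 0 of the 4 others passed.

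Of 15 genes of death receptor signalling, 5 were higher and 1 lower in mutant CNS cells, and 4 higher and 3 lower in mutant GFP-negative cells (40% and 46.7%, against 34.7% and 34.9% of all features). dapk3, a death-associated kinase gene, rose by 1.01 and 1.00 (limma adjusted p = 5.28e-05 and 8.37e-05). dedd, whose protein carries a death effector domain as caspase-8 does, rose by 0.74 and 0.51, and its other probe sets gave values from -0.41 to 1.14 in CNS cells. nfkb2, an NF-kB subunit gene, rose in GFP-negative cells by 1.29 from 83.7 ± 15.0 to 226 ± 9.30 (adjusted p = 7.08e-06). casp8ap2, named for a caspase-8 binding protein, was lower in muscle than in CNS cells (29.3, 28.1 and 34.3 against 118.9, 123 and 85.7; -1.42, adjusted p = 0.000766). hdr, a death receptor gene of blood cells, was lower in CNS cells than in the rest by -4.01 in the wild type and -3.75 in the mutant, and in muscle by -2.71, where 8 of 8 tested erythroid and 6 of 6 tested myeloid markers were lower in muscle as well. Its CNS means were 1.23 and 3.63, so the pseudocount sets the size: with 1 in place of 16 the CNS values became -6.90 and -5.92, and with 64 they became -2.33 and -2.20. The second probe set of hdr gave -1.17, -1.36 and -0.40, the last not past the threshold.

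Mutant against wild type was measured in separate arrays for the CNS and GFP-negative fractions. Of the 37 pathway genes past the threshold in CNS cells and the 39 in GFP-negative cells, 12 were higher in both and 9 lower in both, which is 56.8% of the first and 53.8% of the second. Over all features the shares were 60% of 3313 and 59.7% of 3334. Only ppp1r13l passed in opposite directions, at 0.51 and -0.54, and the first was lost in 8 alternatives, such as quantile normalization (0.35, adjusted p = 0.131), the second in 5, such as without mutant GFP-negative replicate 3 (-0.47, adjusted p = 0.116). CNS cells against the rest was likewise measured in separate arrays of each genotype: 3 genes were higher and 11 lower in both, or 37.8% of the 37 in the wild type and 82.4% of the 17 in the mutant, and thbs1b passed in opposite directions. Over all features these shares were 39.6% of 3129 and 83.7% of 1482.

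Over all 101 pathway genes, 8 were higher and 28 lower in muscle than in its rest. That is 35.6%, against 36.2% of all features (13.1% higher and 23.1% lower). With median centring 20 were higher and 16 lower. For wild-type CNS cells the counts were 12 and 25, or 36.6% against 32.8% (14.5% higher and 18.3% lower). With median centring they were 23 and 17, and median centring shifts all features alike. With quantile normalization the counts were 8 and 22 for muscle, and 17 and 23 for wild-type CNS cells. The mutant CNS cells against their rest had 6 higher and 11 lower (16.8% against 15.5% of features). Muscle against CNS cells had 20 higher and 27 lower (46.5% against 44.4%), and the GFP-negative wild-type fractions 1 higher and 4 lower (4.95% against 6.13%). The 5 genes past the threshold for the interaction are 4.95% of the 101, against 2.58% of all features, and 9 passed with the replicate block.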

How the data were processed

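Total RNA (100 ng per sample, extracted with Trizol, per the labels' protocols) of 18 samples was labelled with biotin and hybridised to Affymetrix zebrafish arrays. The deposited values are linear intensities that the authors made with MAS5, per the labels; no version or scaling target of MAS5 is stated in the labels used. Of 15617 probe sets 115 were controls, 10795 had 1 gene symbol in the platform annotation, 135 several and 4572 none; 1 symbol was updated through RefSeq gene identifiers, of which 10711 were found. Features had to exceed the 40th percentile of their own array on at least 3 of 18 arrays, and the probe set with the highest mean stood for a gene. The log2(intensity + 16) values were fitted with limma 3.58.1 in R 4.3.3 (1 mean per group, empirical Bayes with an intensity trend, two-sided tests), with Benjamini-Hochberg adjustment over 9548 features in each of 8 comparisons. Tables and figures were made with Python 3.11.15, pandas 2.3.3, numpy 2.4.6 and matplotlib 3.10.9. The fit was tested on simulated data. The number of arrays limits the precision.

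The members and the pathway lists were chosen with earlier results of these data known. Of each list, up to 3 genes of each direction with the smallest adjusted p were to be named per comparison, any measured p53 regulator could be given, and the 3 features most like each member were named. Deviations of samples of equal replicate number correlated at r = 0.367, 0.372 and 0.203 over features in the miR-206 line. In the mutant line r was 0.104, 0.275 and 0.297, and in the wild-type miR-124 line 0.181, 0.003 and -0.086. A difference between the lines was not tested. Alternatives were pseudocounts of 1 and 64, no filter, a 60th percentile filter, median centring, quantile normalization, the compared groups fitted alone, no intensity trend, array weights, a replicate block, each probe set on its own, and leaving out each array. No sequences are shown.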

Additional observations from a re-analysis of the deposited data

Results flagged for a closer look

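For 5 pathway genes the difference between CNS and GFP-negative cells differed between mutant and wild type by the interaction in the limma fit. thbs1b, a reported p53 target, had an interaction of 1.54 (SE 0.28, limma adjusted p = 0.00336), which passed in all 23 alternatives: it was lower in wild-type CNS cells than in the rest (-0.77) and higher in mutant CNS cells (0.77). On the wild-type CNS arrays it read 19.3, 19.2 and 22, close to the dim end. tp63 had 2.56 (SE 0.42, adjusted p = 0.00178), lost with a pseudocount of 1 (2.91, adjusted p = 0.0504), with -2.37 in the wild type and 0.19 in the mutant. The second tp63 probe set gave an interaction of 0.83 (limma adjusted p = 0.245), not past the threshold. plk2b had 1.48 (SE 0.36, adjusted p = 0.0265), lost in 8 alternatives. tnfsf10l, a ligand related to TRAIL, had 1.09 (SE 0.29, adjusted p = 0.0468), lost in 13. ppp1r13l had 1.05 (SE 0.27, adjusted p = 0.0398), lost in 11, for example without mutant CNS replicate 1 (0.96, adjusted p = 0.123). Of 12 tested epidermal markers, which include tp63, 7 had a higher interaction as well, and so had 5 of 6 tested myeloid markers. The part of either marker set in these values was not tested.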

How the results depend on the processing

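Of 426 values of the members under alternatives, 407 kept their side of the threshold, 14 fell short of it and 5 newly passed. In 0 of them did the direction change with the main or the alternative value past the threshold. Values short of it in both could change sign and are counted as kept. For example, mdm2 in wild-type CNS cells against the rest ran from -0.11 to 0.13. For 228 values of named pathway genes the counts were 3671, 262, 25 and 0 of 3958. The number of members past the threshold moved from 1 to 2 for muscle against its rest with median centring (1 to 2 when leaving out each array), and from 1 to 0 for wild-type CNS cells against the rest with median centring or array weights (0 to 1 leaving out arrays). It moved from 1 to 0 between the GFP-negative fractions with median centring, quantile normalization, these groups fitted alone or array weights (0 to 1 leaving out arrays). It moved from 0 to 1 for mutant CNS cells against their rest with array weights, for mutant against wild-type CNS cells without the filter (casp8) or with quantile normalization (ccng1), and for mutant against wild-type GFP-negative cells with quantile normalization. With the replicate block mdm2 in muscle had an adjusted p of 0.00766 and baxa in wild-type CNS cells 0.0162, and no call of a member changed. Pathway genes past the threshold went from 36 to 21 for muscle against its rest with these groups fitted alone, from 17 to 29 with array weights and to 11 without mutant GFP-negative replicate 1 for mutant CNS cells against their rest, and from 37 to 58 with array weights for mutant against wild-type CNS cells. For the interaction 5 became 3 with a pseudocount of 1 or no filter, 9 with the replicate block and as few as 2 leaving out arrays; between GFP-negative fractions 5 became 1 with these groups fitted alone, 2 with array weights and 1 to 3 leaving out arrays. The cause of these changes was not tested. Median centring moved the share of higher genes among all features past the threshold from 36.1% to 59.1% for muscle against its rest, 44.3% to 62.2% for wild-type CNS cells against the rest, 41.2% to 53.3% for muscle against CNS cells, 55.5% to 45.1% for mutant against wild-type CNS cells and 36.4% to 52.4% between GFP-negative fractions. Signal near background limits casp8, and 19 of 149 differences of named pathway genes, of 13 genes such as casp2, hdr, pmaip1, plk2b, ppp1r13ba, thbs1b and tigarb, have a group whose mean lies below the lowest 40th percentile of the arrays.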
